A study of Mus musculus with 12 samples.

Results

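The data concern 9 genes of radial glia, the stem cells of the embryonic cortex, in pieces of the mouse cortical hemisphere at E16.5 (embryonic day). The genes are Prom1, Hopx, Sox2, Sox3, Tead2, Aldoc, Dbi, Fabp7 and Gas1, and all their probe sets were taken by gene symbol from the platform annotation. They make 9 of the 8251 genes that the array names with a single symbol, and 13 of its 12488 probe sets. Of these 13 probe sets, 11 passed the filter on low values. Each of the 9 genes kept at least 1 probe set. The 2 that did not pass both belong to Sox3.

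The study hybridised RNA to Affymetrix oligonucleotide arrays of mouse genes. Hemispheres were cut into 5 pieces, titled medial, dorsal, ventral, rostral and occipital, and the sixth group is the whole hemisphere. Each of the 6 groups has 2 arrays, replicate 1 and replicate 2, which the labels assign to independent dissections. All 6 groups share the age and the tissue, and the labels name no genotype, treatment or strain for any of them. Where the titles have a rostral piece, the protocol text lists a lateral one, so the position of that piece is uncertain. The piece borders, the number of embryos per dissection and the share of ganglionic eminence in the ventral piece are not given in the sources used here. The values are average differences, the mean over a probe set's probe pairs of the perfect-match signal minus the mismatch signal, in array units. They can be negative, and how much RNA they stand for is not comparable between probe sets.

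Radial glia line the ventricle of the embryonic brain and span its wall with a long fibre. They divide at the ventricular surface, give rise to neurons directly or through intermediate progenitors, and later turn into astrocytes. Their RNA holds transcription factors of the stem cell state, proteins of the apical membrane and fibre, and enzymes and lipid carriers that astrocytes keep using. A piece of cortex also holds intermediate progenitors, migrating and settled neurons, and cells of vessels and meninges, so each value is an average over all of them.

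The 12 arrays had been scaled to 2% trimmed means between 2501.6 and 2501.9, and 39.1% to 41.7% of probe sets per array exceeded the filter level of 1387. The beta-actin 5′ to 3′ probe set ratio, a sign of RNA and labelling quality, lay between 0.604 and 0.831 for replicate 1 of the 6 groups and between 0.804 and 0.887 for replicate 2. On the ventral arrays it was 0.665 and 0.856, and the first of these was the lowest among the 10 region arrays. The part of this ratio in the results was not tested. With 2 arrays per group, the p-values rest on the spread between 2 dissections. For each probe set this spread was pooled over the 6 groups and drawn towards that of all tested probe sets.

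In the ventral piece 6 of the 9 genes fell against the mean of the other 4 pieces and 3 did not pass the test. Gas1, a surface co-receptor for Sonic hedgehog, fell 4.01-fold. Sox3 fell 3.41-fold, with 1 of its 2 ventral arrays at the floor set for low values, Prom1 2.74-fold, Tead2 2.54-fold, Aldoc 2.36-fold and Dbi 1.74-fold. Sox2, Hopx and Fabp7 did not pass. Of all 5832 probe sets tested, 5.54% were lower in the ventral piece by the same test, which was limma with Benjamini-Hochberg adjustment at a threshold of 0.05. No member rose, also not at an unadjusted p under 0.05 in limma, where 0 were higher and 7 lower. The median log2 difference of the 9 genes was -1.24, against -0.02 over all tested probe sets. As the 9 genes were chosen with earlier results of these data known, their count and median beside the background are a description only. For all 6 genes that fell, both ventral arrays lay below all 8 arrays of the other pieces. This describes genes already called lower. How many of all tested probe sets separated in this way, or had an unadjusted p under 0.05, was not counted. In bulk tissue, fewer radial glia in a piece and less of an RNA per cell cannot be told apart.

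**Figure D1:**
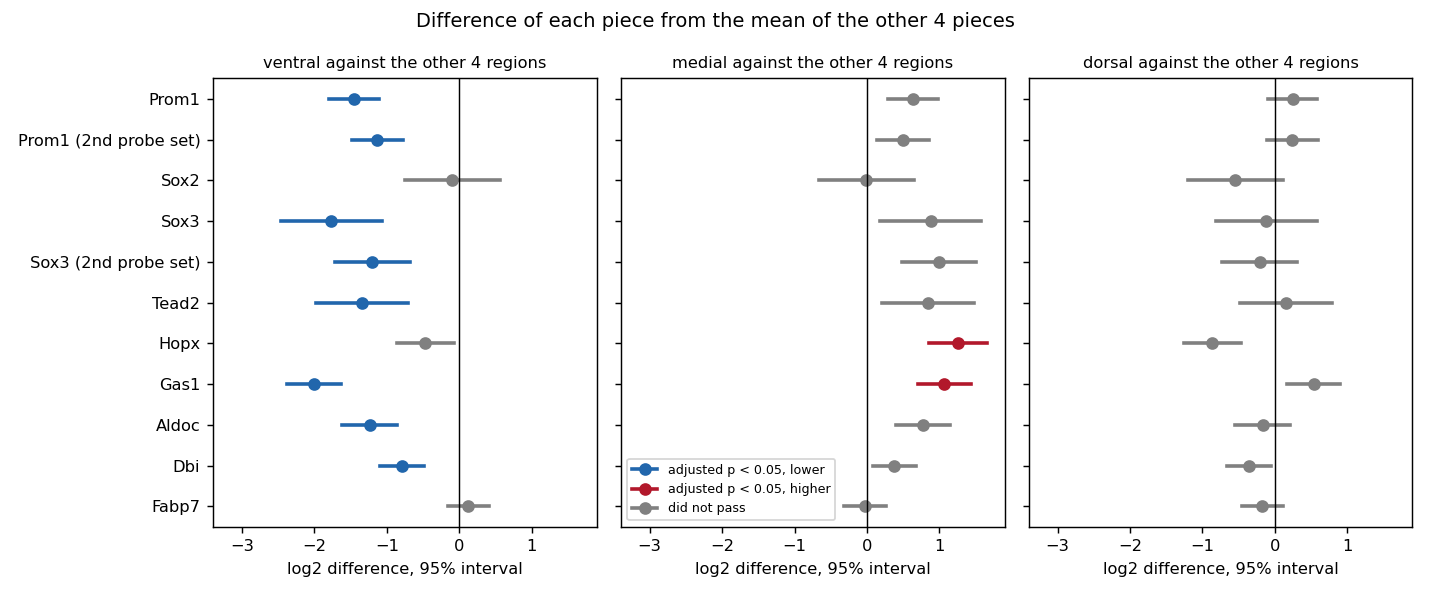
Log2 difference of 11 probe sets of the 9 genes in the ventral, medial and dorsal piece, each against the mean of the other 4 pieces, on the horizontal axis. Points are limma estimates, bars are their 95% intervals, and colour marks an adjusted p under 0.05. The ventral panel has 8 probe sets of 6 genes on the lower side. The medial panel has Hopx and Gas1 on the higher side, and in the dorsal panel no probe set passed.

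Of the 2 surface proteins, Gas1 had the largest ventral difference of the 9 genes. Its average difference was 5488 and 5804 on the medial arrays, 4329 and 4088 on the dorsal, 899 and 1177 on the ventral, 2933 and 4052 on the rostral, 3839 and 3287 on the occipital, and 3838 and 3767 on the hemisphere arrays. The ventral arrays stood below all 10 others, and the medial arrays above all 10 others. The ventral mean was 1038 ± 196 (SD, n = 2) against 4227 ± 989 (SD, n = 8) in the other pieces. The log2 difference was -2.01 ± 0.16 (SE), with a 95% interval from -2.37 to -1.64 and an adjusted p of 0.000508 in limma. It was -2.17 in replicate 1 and -1.84 in replicate 2.

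Prom1 encodes prominin-1, a membrane protein of the apical surface and its protrusions. The probe set with the higher mean read 3299.9 and 3296 on the medial arrays, 2764 and 2568 on the dorsal, 887 and 1211 on the ventral, 2916 and 2414 on the rostral, 2928 and 2649 on the occipital, and 2275 and 2436 on the hemisphere arrays. The ventral arrays were again the lowest. The medial arrays were the highest, and those of the dorsal, rostral and occipital pieces overlapped. Means were 1049 ± 229 (SD, n = 2) in the ventral piece and 2854 ± 323 (SD, n = 8) in the others, a log2 difference of -1.45 ± 0.15 (SE) with an adjusted p of 0.00114 in limma. A second Prom1 probe set, with probes that may match related sequences, read 615 and 568 on the ventral arrays and 1249 to 1952 on the other pieces. Both of its ventral values lie under the floor of 693.5 used for low values, so its fold is a bound of at least 2.19-fold lower (adjusted p = 0.00351 in limma). Its call was lost with a floor of 2 times that height, at a log2 difference of -0.16, and without ventral replicate 1 (adjusted p = 0.0540 in limma).

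Among the 4 regulators of transcription, Sox3 and Tead2 fell in the ventral piece and Sox2 and Hopx did not pass. Sox2 and Sox3 are closely related HMG-box factors of neural stem cells. Sox3 read 3657 and 4424 on the medial arrays, 2281 and 2355 on the dorsal, 562 and 1240.3 on the ventral, 3369.9 and 3648 on the rostral, 2778 and 3348 on the occipital, and 1153 and 2706 on the hemisphere arrays. The ventral arrays were below those of the other pieces, though 1 of them is under the floor and the lower hemisphere array lies between them. The floored log2 difference from the other pieces was -1.77 ± 0.31 (SE), with a 95% interval from -2.47 to -1.07 (adjusted p = 0.0095 in limma). As 1 ventral array was raised to the floor, the size depends on it, and the difference was -1.19 with a floor of 2 times that height.

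The second tested Sox3 probe set gave the same direction, at 1452 and 1131 on the ventral arrays and 2154 to 5111 on the other pieces. Its log2 difference was -1.20 ± 0.23 (SE), 2.30-fold lower, with an adjusted p of 0.0127 in limma. The remaining 2 Sox3 probe sets read low on every array. One of them ranged from -289 to 795 with 9 of 12 arrays under the floor, and the other from -90.7 to 78.5 with all 12 under it. Both tested Sox3 probe sets carry suffixes that Affymetrix gives to sets with relaxed probe selection, and so does the Sox2 probe set.

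Sox2 stayed within the spread of the other pieces. It read 12810.3 and 10558 on the medial arrays, 10199 and 7317 on the dorsal, 12975 and 9461 on the ventral, 16335 and 14575 on the rostral, 16764 and 9656 on the occipital, and 17356 and 9050.4 on the hemisphere arrays. Replicate 1 was the higher one in 6 of 6 groups, whereas for the first Sox3 probe set it was the lower one in 6 of 6 and for the second in 2 of 6. The ventral mean of 11218 ± 2485 (SD, n = 2) lay within the spread of the other pieces, 12277 ± 3400 (SD, n = 8). The log2 difference was -0.10 ± 0.29 (SE; adjusted p = 0.892 in limma). Its 95% interval, -0.75 to 0.56, spans folds from 1.69 lower to 1.47 higher, so a fall of the size seen for Dbi is just outside it and smaller falls are not.

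Tead2 is the DNA-binding partner of YAP in the Hippo pathway and is abundant in neural progenitors. It read 3875 and 4776 on the medial arrays, 2632 and 3282 on the dorsal, 929 and 1761 on the ventral, 3247 and 2609 on the rostral, 2449 and 3781 on the occipital, and 2343 and 3614 on the hemisphere arrays. The ventral arrays were the lowest pair of all 12, with a mean of 1345 ± 588 (SD, n = 2) against 3331 ± 791 (SD, n = 8) in the other pieces. The log2 difference was -1.35 ± 0.28 (SE; adjusted p = 0.0194 in limma), with -1.69 in replicate 1 and -1.0 in replicate 2.

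Hopx, a homeodomain protein without DNA binding that marks outer radial glia and medial cortex, separated the medial piece instead. It read 8015 and 6480.5 on the medial arrays, 2332 and 2124 on the dorsal, 2727 and 2806 on the ventral, 2870.5 and 4014 on the rostral, 4202 and 3766 on the occipital, and 2852 and 3789 on the hemisphere arrays. The dorsal arrays, not the ventral ones, were the lowest. Ventrally its log2 difference was -0.47 ± 0.17 (SE; adjusted p = 0.140 in limma), and the ventral arrays lay within the range of the other pieces. The 95% interval, -0.87 to -0.08, does not include 0 before the adjustment.

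Of the 3 metabolic genes, Aldoc and Dbi fell in the ventral piece and Fabp7 did not pass. Aldoc, the aldolase of glycolysis that astrocytes and radial glia use, read 18809 and 17396 on the medial arrays, 9732 and 11803 on the dorsal, 5605 and 6267 on the ventral, 15196 and 12889 on the rostral, 11997 and 16516 on the occipital, and 12838 and 15559.7 on the hemisphere arrays. The ventral arrays were lowest, the dorsal ones next, and the medial ones highest, with no overlap between these 3 and their neighbours in the order. The ventral mean was 5936 ± 468 (SD, n = 2) against 14292 ± 3163 (SD, n = 8), a log2 difference of -1.24 ± 0.17 (SE; adjusted p = 0.00317 in limma). It was close to equal in the replicates, at -1.27 and -1.21.

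Dbi, the acyl-CoA-binding protein whose peptides also act on GABA-A receptors, read 21480.1 and 18633 on the medial arrays, 13892 and 12676 on the dorsal, 11466 and 9499 on the ventral, 21551 and 18859 on the rostral, 19525 and 20664 on the occipital, and 21812 and 20304 on the hemisphere arrays. Its arrays fell into a low set, ventral and dorsal, and a high set of the other 4 groups. The ventral log2 difference was -0.80 ± 0.13 (SE), the smallest among the 6 that passed (adjusted p = 0.00817 in limma).

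Fabp7, the brain fatty-acid-binding protein and a standard marker of radial glia, varied least. It read 47696 and 51608 on the medial arrays, 45212 and 46347 on the dorsal, 54953 and 53285 on the ventral, 54592 and 49750.5 on the rostral, 55894 and 46370.5 on the occipital, and 56789.8 and 50896 on the hemisphere arrays. Its highest mean over the pieces was 1.18 times its lowest, and the ventral mean was the highest of the 6. The ventral log2 difference was 0.13 ± 0.13 (SE; adjusted p = 0.619 in limma), with a 95% interval from -0.16 to 0.41, which spans folds from 1.12 lower to 1.33 higher. Its mean signal ranked 82 from the top of all probe sets. Whether probes this bright still respond in proportion to the RNA was not tested.

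**Figure D2:**
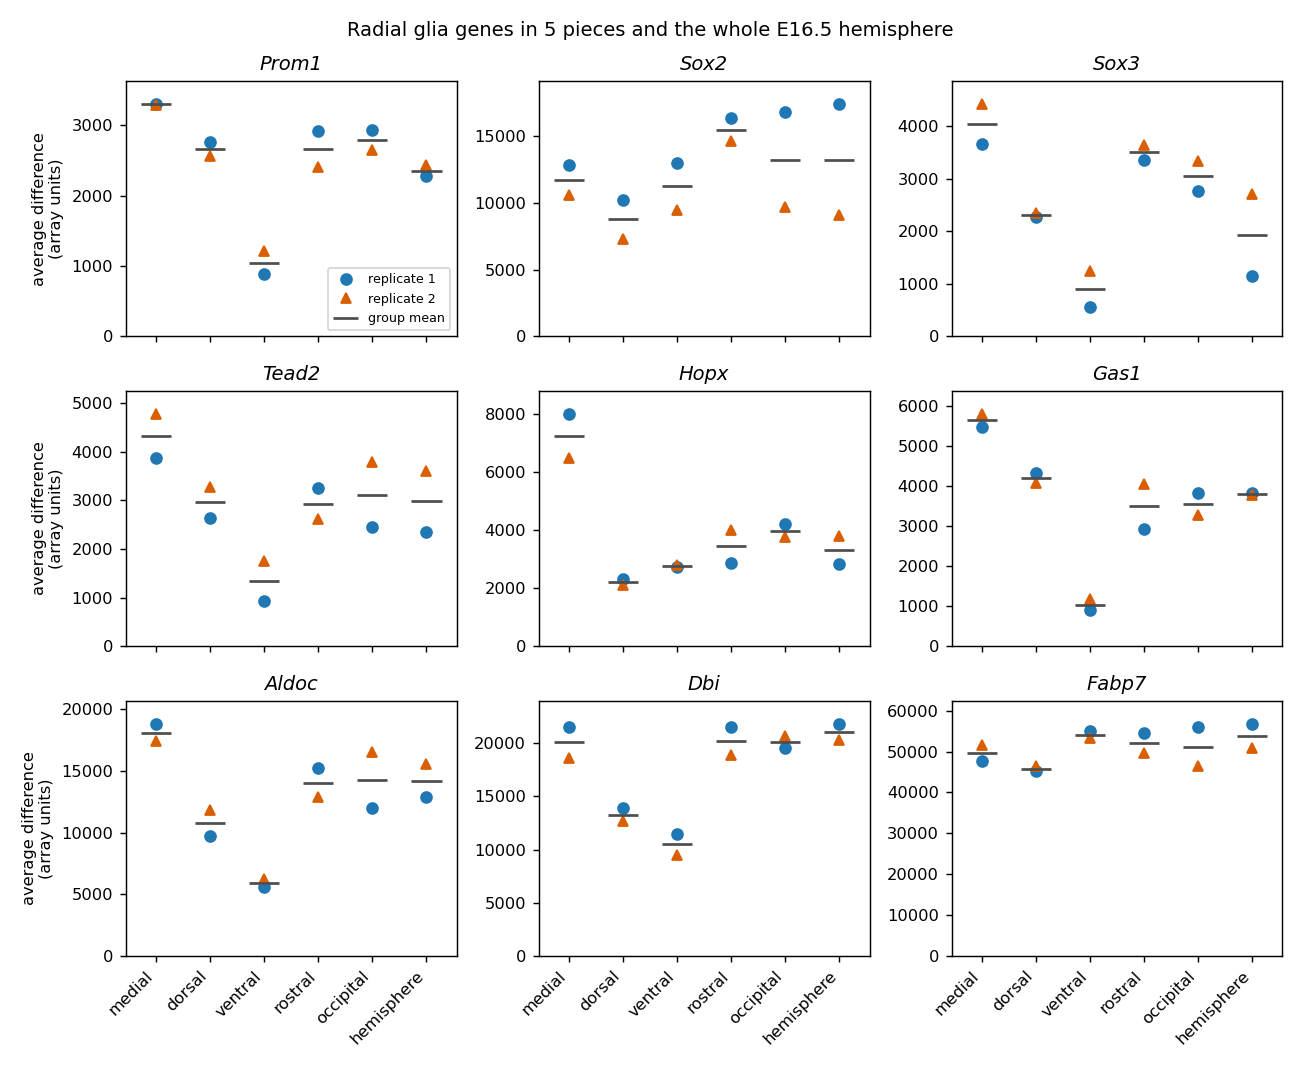
Average difference, in array units from 0, of the 9 genes (1 probe set each) on the 12 arrays, by group. Circles are replicate 1, triangles replicate 2 and bars the mean of both. The ventral arrays are lowest for Prom1, Tead2, Gas1, Aldoc and Dbi. The medial arrays of Hopx stand apart, and Fabp7 stays between 45212 and 56789.8.

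Leaving out a ventral array changed how many genes passed. Without ventral replicate 1, 2 of the 6 passed, Prom1 and Gas1, and the log2 differences of the other 4 were -1.35 for Sox3, -0.89 for Tead2, -1.16 for Aldoc and -0.93 for Dbi, with adjusted p in limma of 0.146, 0.235, 0.0563 and 0.0508. Without ventral replicate 2, 5 passed, and Dbi had an adjusted p of 0.110 in limma. With no filter on low values 4 passed, without Sox3 and Tead2. Over all probe sets, 401 of 12422 then passed in either direction, against 571 of 5832 with the filter. The number passing over all tested probe sets was also smaller with either ventral array left out.

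The stretch of DNA just upstream of the start of a gene is shown for 4 members, Tead2 and Aldoc as genes that fell in the ventral piece and Sox2 and Fabp7 as genes that did not pass. RefSeq (GRCm38.p6) held an upstream sequence for 8 of the 9 genes, and each line gives the 250 bases before the annotated start, 5′ to 3′ on the strand of the gene. These are Tead2 at chr7:45215542-45215791, Aldoc at chr11:78322823-78323072, Sox2 at chr3:34649745-34649994 and Fabp7 at chr10:57784673-57784922, all on the plus strand. Capitals mark matches, on either strand, to ACAAAG (SOX factors), GGAATG (TEAD factors), TGGGAA (the Notch partner RBPJ), CCAAT (NF-Y) and ATGCAAAT (POU factors).
Tead2: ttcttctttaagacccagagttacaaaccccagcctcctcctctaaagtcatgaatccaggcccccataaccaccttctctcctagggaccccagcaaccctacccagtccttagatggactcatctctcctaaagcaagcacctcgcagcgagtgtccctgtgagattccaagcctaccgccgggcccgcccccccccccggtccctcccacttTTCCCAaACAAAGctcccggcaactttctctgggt
Aldoc: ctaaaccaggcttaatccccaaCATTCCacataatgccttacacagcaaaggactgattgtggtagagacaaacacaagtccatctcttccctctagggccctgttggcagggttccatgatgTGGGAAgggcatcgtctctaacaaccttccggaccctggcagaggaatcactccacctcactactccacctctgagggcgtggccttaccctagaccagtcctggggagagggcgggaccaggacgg
Sox2: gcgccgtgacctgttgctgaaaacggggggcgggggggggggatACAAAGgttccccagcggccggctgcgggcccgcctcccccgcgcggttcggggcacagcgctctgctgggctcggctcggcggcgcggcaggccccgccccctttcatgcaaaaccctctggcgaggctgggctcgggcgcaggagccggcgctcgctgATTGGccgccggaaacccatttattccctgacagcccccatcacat
Fabp7: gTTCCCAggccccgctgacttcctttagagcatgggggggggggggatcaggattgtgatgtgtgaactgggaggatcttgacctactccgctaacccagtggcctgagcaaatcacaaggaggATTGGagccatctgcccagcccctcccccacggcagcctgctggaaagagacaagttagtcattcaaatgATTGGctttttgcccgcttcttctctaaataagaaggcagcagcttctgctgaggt
ACAAAG was found in Tead2 and Sox2, thus in 2 of 8 members, and in 16.46% of 32851 upstream windows of the same length. TGGGAA was found in Tead2, Aldoc and Fabp7 of the 4 shown and in 21.59% of all windows. GGAATG, in 12.64% of all windows, had a match in Aldoc and none in Tead2. CCAAT, in 33.85% of all windows, was found in 5 of 8 members, Sox2 and Fabp7 among them, and ATGCAAAT, in 1.601%, in 0. No matches overlapped in these windows. None of the 5 motifs was found in all members that fell and had such a window.

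Because each array reads all genes at once, a pair of genes can be compared within the array. The pairs set a gene that fell against a related gene that did not pass, and were chosen with these results known. For that reason their values are a description with no test. The log2 difference of Sox3 minus Sox2 was -4.23 and -2.93 on the ventral arrays and -2.59 to -1.25 on the other 8, without overlap. The first of these values, and so the ventral shift of -1.67, is set by the floor to which Sox3 was raised on that array. For Dbi minus Fabp7 the ventral arrays read -2.26 and -2.49 and the others -1.87 to -1.15, a ventral shift of -0.92. For Aldoc minus Fabp7 they read -3.29 and -3.09 against -2.22 to -1.34, a shift of -1.37, and both of these pairs share Fabp7. The values say how the difference moved between pieces, not which of the 2 genes had more RNA.

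**Figure D3:**
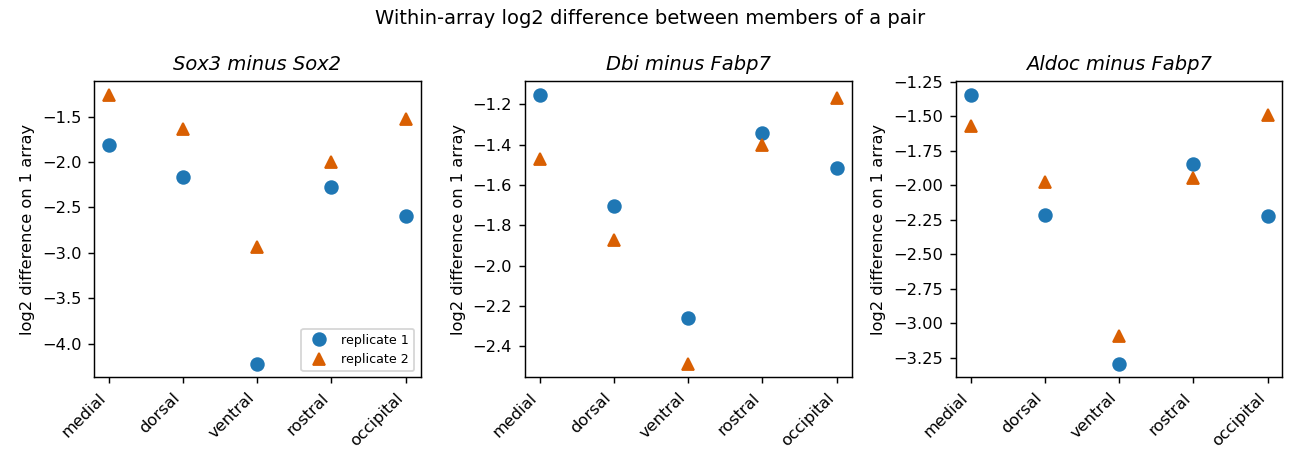
Log2 difference between the 2 genes of a pair on each of the 10 region arrays (vertical axis, log2 units, a range of its own in each panel), by piece. Circles are replicate 1 and triangles replicate 2. In each of the 3 panels both ventral arrays lie below the other 8.

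In the medial piece 2 genes rose, Hopx and Gas1, where 0.514% of all tested probe sets were higher. Hopx averaged 7248 ± 1085 (SD, n = 2) against 3105 ± 785 (SD, n = 8), a log2 difference of 1.26 ± 0.17 (SE), 2.39-fold, with an adjusted p of 0.0187 in limma. Gas1 averaged 5646 ± 223 (SD, n = 2) against 3075 ± 1338 (SD, n = 8), 1.06 ± 0.16 (SE) on the log2 scale and 2.09-fold (adjusted p = 0.0211 in limma). Prom1, Sox3, Tead2 and Aldoc had medial differences of 0.63, 0.88, 0.84 and 0.77 on the log2 scale. These did not pass, with adjusted p from 0.0668 to 0.232 in limma. For each of them both medial arrays lay above all others. The margin was small for Sox3, 3657 against 3648 on a rostral array, and for Tead2, 3875 against 3781 on an occipital array. How many of all tested probe sets separated in this way was not counted. Sox2, at -0.01 (95% interval -0.67 to 0.65), and Fabp7, at -0.03 (95% interval -0.31 to 0.26), were again the members nearest to 0.

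The medial comparison shares its reference with the low ventral values. Against the dorsal, rostral and occipital pieces alone, Hopx was 1.21 higher on the log2 scale with an adjusted p of 0.0744 in limma, and Gas1 0.60 higher with an adjusted p of 0.330. Neither passed without medial replicate 1, medial replicate 2, dorsal replicate 2 or either ventral array (0 genes each), and Gas1 did not without dorsal replicate 1 (1 gene).

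In the dorsal piece 0 of the 9 genes passed in limma, where 0.274% of all tested probe sets did. At an unadjusted p under 0.05 in limma there were 3. Gas1 was higher by 0.53 on the log2 scale, and Hopx and Dbi were at -0.86 and -0.36. Their adjusted p in limma were 0.364, 0.127 and 0.567. How many of all tested probe sets had such an unadjusted p was not counted. The reference includes the ventral piece, where Gas1 was low. Mean log2 values of Gas1 were 12.04 in the dorsal piece, 12.46 medial, 11.75 rostral, 11.79 occipital and 10.01 ventral.

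Set directly against the dorsal piece, the ventral one had 2 genes lower, Prom1 by a log2 difference of -1.36 (adjusted p = 0.00567 in limma) and Gas1 by -2.03, or 4.09-fold (adjusted p = 0.00246). The background was 2.49% lower. Sox3 at -1.32, Tead2 at -1.20, Aldoc at -0.85 and Dbi at -0.35 did not pass. Their adjusted p in limma were 0.0979, 0.0994, 0.0529 and 0.338. With 1 array left out, the difference ranged from -2.23 to -1.84 for Gas1 and from -1.59 to -1.14 for Prom1. The call of Prom1 did not hold in all of these fits. Where it was lost, fewer of all tested probe sets passed too. The members Sox2, Hopx and Fabp7 had positive ventral-minus-dorsal differences of 0.36, 0.31 and 0.24 that did not pass.

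Against the medial piece 7 of the 9 genes were lower in the ventral piece, where 6.05% of all tested probe sets were. These are the 6 named above and Hopx, whose log2 difference was -1.38 (adjusted p = 0.00559 in limma). Gas1 differed 5.49-fold (adjusted p = 0.000661 in limma). With 1 array left out, all 7 differences kept their sign. The difference ranged from -2.65 to -2.26 for Gas1, from -2.21 to -1.29 for Tead2 and from -1.07 to -0.80 for Dbi. The calls of Sox3, Tead2 and Dbi did not hold in all of these fits. Where a call was lost, fewer of all tested probe sets passed too. Medial against dorsal, Hopx was higher by 1.70 ± 0.22 (SE) on the log2 scale, 3.24-fold, with an adjusted p of 0.0472 in limma, where 0.0343% of all tested probe sets were higher. That call did not hold under 7 other settings, nor without any 1 of the medial, dorsal, ventral or occipital arrays. These comparisons share arrays with each other and are not independent.

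The rostral and occipital pieces and the whole hemisphere gave no member that passed in limma, nor did any other probe set (0% called in each comparison). At an unadjusted p under 0.05 in limma there was 1 gene in each of these 3 comparisons. It was Dbi, higher by 0.39, 0.39 and 0.38 on the log2 scale. How many of all tested probe sets had such a p was not counted. Each reference includes the ventral and dorsal pieces, where Dbi was low, so the 3 differences are not independent. Mean log2 values of Dbi were 13.35 ventral, 13.70 dorsal, 14.29 medial, 14.30 rostral, 14.29 occipital and 14.36 in the hemisphere. The second Sox3 probe set, which does not represent its gene in these counts, was at -0.79 in the hemisphere (unadjusted p = 0.0062, adjusted p = 0.962 in limma), and the first at -0.49 (unadjusted p = 0.143). Rostral against occipital, 0 members had an unadjusted p under 0.05. The hemisphere mean lay between the lowest and the highest piece for 8 of the 9 genes. For Dbi the hemisphere mean, 21058, was above that of every piece, but its arrays overlapped with those of the rostral piece.

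Over all 5 pieces together, the moderated F test of limma passed for 190 of 5832 probe sets, 3.26%. Among the members it passed for Gas1 (adjusted p = 0.00453, rank 10 of all), Prom1 (0.0093), Aldoc (0.0205), Hopx (0.0206) and Dbi (0.0324). It did not pass for Sox3 (0.0706), Tead2 (0.129), Sox2 (0.826) and Fabp7 (1.0). Over the 5 pieces, the highest mean exceeded the lowest 5.49-fold for Gas1, 4.34-fold for Sox3 with 1 ventral array at the floor, 3.36-fold for Tead2, 3.24-fold for Hopx, 3.18-fold for Prom1, 3.05-fold for Aldoc, 1.93-fold for Dbi, 1.79-fold for Sox2 and 1.18-fold for Fabp7.

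Across the 12 arrays the members formed no single block. Log2 values of Prom1 and Gas1 correlated at r = 0.95, Aldoc and Tead2 at 0.92, Prom1 and Aldoc at 0.90, Prom1 and Tead2 at 0.90, and Sox3 and Tead2 at 0.89. Sox2 and Fabp7 correlated at 0.67 with each other, Sox2 and Sox3 at -0.07, and Fabp7 and Tead2 at -0.46. These are descriptions over 12 arrays in pairs from 6 groups, which share scaling and dissection, and carry no test.

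The genes most like each member over the 12 arrays, by Pearson r of log2 values, differed between members. For Prom1 they were Uhrf1 (0.970), Prc1 (0.966) and Cdk2ap1 (0.962), and for Gas1 Sap30 (0.989), Cdk2ap1 (0.981) and Idh2 (0.980). For Sox3 they were Elavl1 (0.967), Vps37b (0.960) and Notch1 (0.956), and for Tead2 Itsn1 (0.975), Tcf4 (0.962) and Sstr2 (0.962). For these 4 members all values of r exceeded those of Hopx, whose nearest genes were Nek2 (0.893), Pter (0.876) and Mt2 (0.840). Aldoc had Hadhb (0.967), Nek6 (0.958) and Gadd45g (0.954), and Dbi had Acot1 (0.940), Pdpn (0.927) and Cnn3 (0.900). Sox2 had Slc12a2 (0.925), Aktip (0.916) and Smpdl3a (0.894), and Fabp7 had Cd81 (0.904), Rgs2 (0.842) and Stat3 (0.817).

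Other genes of radial glia and neural stem cells were listed beside the 9 members. Of 42 listed, 30 are on the array and 21 were tested, and 3 of the 21 fell in limma beside the background of 5.54%. These were Sfrp1, a secreted Wnt modulator, at -1.86 (adjusted p = 0.0310), Zfp36l1, an RNA-binding protein, at -1.05 (adjusted p = 0.0333), and Psat1, an enzyme of serine synthesis, at -0.95 (adjusted p = 0.00195). None rose in limma, with 1 higher and 9 lower at an unadjusted p under 0.05. Id4, an inhibitor of helix-loop-helix factors, had a difference of 0.83 and the endothelin receptor Ednrb 0.56, and neither passed. Notch1 counts here by its tested probe set with the highest mean, which did not pass. Another Notch1 probe set, the one named above as like Sox3, had a ventral difference of -1.83. Nestin (Nes), the intermediate filament of the fibre, was at -0.50 (adjusted p = 0.0572 in limma), and Pax6 at -0.54. The median over the 21 genes was -0.50, against -1.24 for the 9 members and -0.02 for all tested probe sets, and 15 of the 21 were below 0. Members and list were both chosen with earlier results of these data known, so these medians are a description only. The summed level of the 30 genes was 96013 to 120657 on the ventral arrays, which overlapped with 102077 to 120090 on the dorsal ones, and 138962 to 162797 in the other 3 pieces. In the medial piece 1 of the 21, Psat1, was higher in limma, and 0 of 21 passed in ventral against dorsal, with a median of -0.02.

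Markers of other cells moved with the same pieces. Over all tested probe sets 5.54% were lower in the ventral piece, with a median of -0.02. Genes of intermediate progenitors fell in the ventral piece for 6 of 9 tested, with a median of -1.37. Insm1 was at -2.94, and Eomes at -2.80 on the floored scale, where its ventral mean of 236 lies under the floor and so does not give the size of its fall. Their summed level was 13983 to 17350 on the ventral arrays and 60128 to 68140 on the medial ones. Genes of cycling cells fell for 14 of 24 tested, with a median of -1.14. Cdk1, the mitotic kinase, was at -1.91 and Rrm1, which makes deoxynucleotides, at -1.84, whereas Cdt1 (-0.17) and Mcm5 (-0.10) did not pass. The summed level of cycling genes was 44271 to 48314 on the ventral, 84269 to 86928 on the dorsal and 119646 to 124858 on the medial arrays, and 83257 to 106405 on the rostral and occipital ones.

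In the opposite direction, 11 of 21 tested genes of postmitotic neurons and 9 of 16 of GABAergic cells and the ganglionic eminences rose in the ventral piece, and 0 of either list fell in limma, also at an unadjusted p under 0.05. Here 4.25% of all tested probe sets were higher. Of the neuronal genes, Scg2 (2.45) and Vsnl1 (2.31) had the largest differences, and Map2 (-0.02) and Tubb3 (0.08) did not pass. The neuronal sum was 573422 to 581011 on the ventral and 344449 to 397546 on the medial arrays. The GABAergic sum was 149263 to 165082 on the ventral and 28146 to 32075 on the medial arrays, led by the neuropeptide genes Penk (3.36) and Sst (2.83), while the progenitor factors Dlx1 (0.33) and Dlx2 (0.06) did not pass. The part of these cell types in the ventral values of the 9 genes was not tested.

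Astrocytes also use Aldoc, Dbi and Fabp7. Of 6 astrocyte markers on the array, the group means of Gfap, Aqp4, S100b, Slc1a2 and Fgfr3 were above the filter level in 0 of 6 groups, and Gja1, at a ventral difference of -0.26, did not pass. Of the markers tested for meninges, 1 of 5 fell in the ventral piece, Igfbp2 at -0.48, beside 5.54% of all tested probe sets. Of choroid plexus and midline roof 0 of 4 passed, with 1 lower at an unadjusted p under 0.05 in limma. Of endothelial cells and pericytes 0 of 3 passed, of microglia 0 of 4, of the oligodendrocyte lineage 0 of 3 and of red blood cells 0 of 2, with 2 oligodendrocyte genes and 0 of the others at an unadjusted p under 0.05 in limma.

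**Figure D4:**
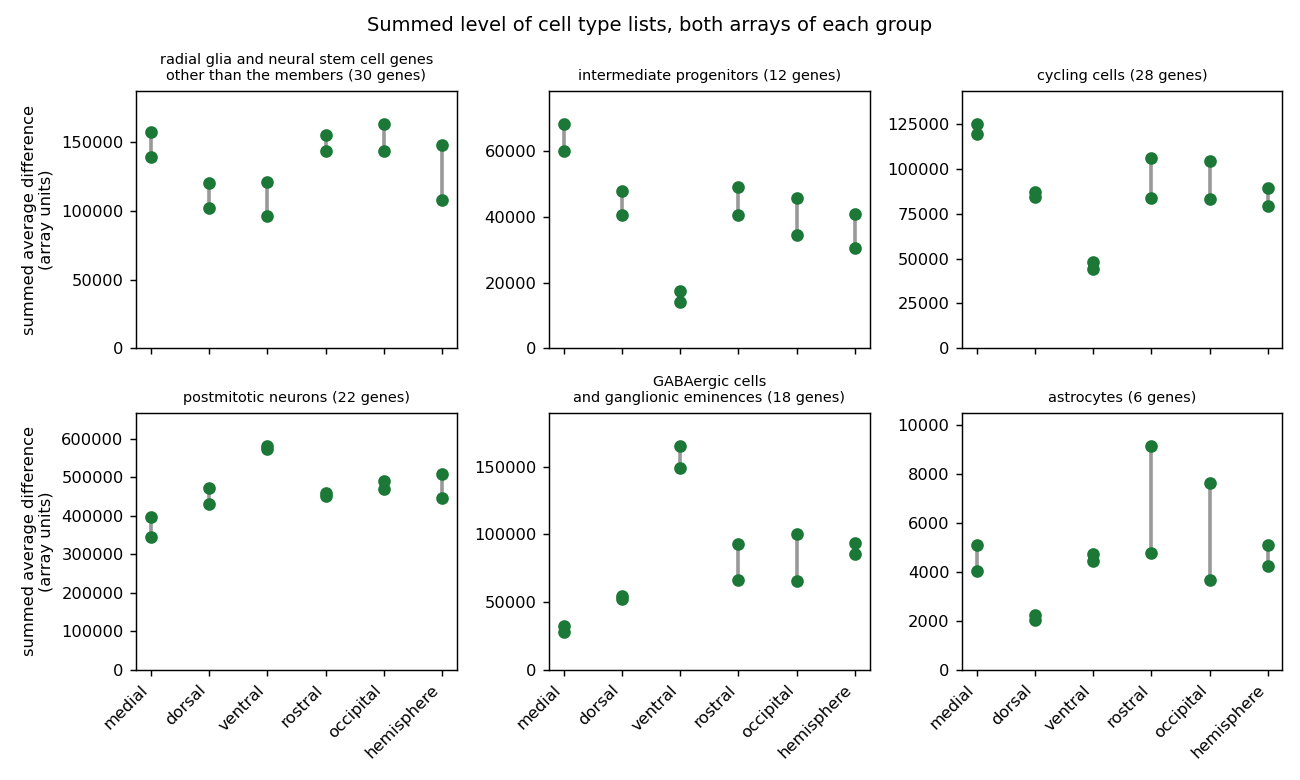
Summed average difference, in array units, of 6 lists of marker genes on both arrays of each group. Points are arrays and lines join the 2 arrays of a group. The ventral arrays are lowest for intermediate progenitors and cycling cells, highest for neurons and GABAergic cells, and overlap with the dorsal arrays for the other radial glia genes.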

How the data were processed

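Per the labels' protocols, poly(A)+ RNA was copied into biotin-labelled cRNA and hybridised to arrays that were scanned 2 times. The molecule field says total RNA. The deposited values are intensities, Affymetrix average differences on a linear scale, which the authors had scaled to a common 2% trimmed mean. The software is not given in the sources used here, and no further scaling was applied.

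The negative values have a root mean square of 693.5. Anything below it was raised to this floor before log2 was taken. After leaving out 66 control probe sets, those above 1387 on at least 2 of 12 arrays were tested (5832 of 12488). R 4.3.3 with limma 3.58.1 fitted 1 mean per group (6 residual and 2.86 prior degrees of freedom), with Benjamini-Hochberg adjustment within each comparison at 0.05. A piece was compared with the mean of the other 4 group means. All tests are two-sided, and the scripts were tested on simulated data.

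A gene is represented by its tested probe set with the highest mean. The members and lists were chosen with earlier results of these data known. Besides the members, the 3 most similar genes of each and up to 4 genes per list with the most extreme ventral differences were named; Psat1, Nes, Pax6, Igfbp2 and the astrocyte markers were added after their values were seen. The number of arrays limits the precision. Alternatives were other floors, filters, scalings, variance models and references, the replicate block, and leaving out arrays.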

Additional observations from a re-analysis of the deposited data

How the results depend on the processing

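Of 2322 recomputed values of single probe sets, 2184 kept their direction and their side of the threshold, 66 lost and 20 gained a call, and 52 changed sign. None of those 52 had passed on either side. Gas1 and the first Prom1 probe set were called lower in the ventral piece under all 22 alternatives, the second Prom1 probe set under 19 of 21. Among the members the medial count of 2 became 4 with a floor at 2 times the main one, 1 with no filter and 0 with the ventral piece out of the reference. Ventral against dorsal, it went from 2 to 5 with the replicate block and 1 with only the arrays compared, ventral against medial from 7 to 5 with no filter or only the arrays compared, and medial against dorsal from 1 to 0 with either other floor, no filter, quantile normalization, the arcsinh scale, trended robust variances or only the arrays compared. With 1 array left out, the ventral count ranged from 2 to 6, the medial from 0 to 2, ventral against dorsal from 1 to 3, ventral against medial from 5 to 7 and medial against dorsal from 0 to 1. Over all tested probe sets, the number called also fell in most of these fits. The pair shifts with 1 array left out ranged from -2.32 to -1.02 for Sox3 minus Sox2. They ranged from -1.04 to -0.81 for Dbi minus Fabp7 and from -1.47 to -1.26 for Aldoc minus Fabp7. Leaving out each region array there was chosen after seeing the data. The causes were not tested. Over the 15 pairs of groups, replicate differences correlated at -0.06 to 0.56, 14 above 0.1. As the labels do not say what a number marks, the main fit did not pair the samples by number, and the replicate block was kept as an alternative. Whether arrays of the same number share a dissection or a batch was not tested. The replicate block left the ventral count at 6, and gave 3 in the medial piece and 7 for ventral against medial. Over all probe sets it moved the medial count from 74 to 256 and the ventral count from 571 to 938.

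The values that changed sign were 0.0027 for medial Fabp7 with the ventral piece out of the reference, 0.14 for ventral Sox2 without the rostral and occipital arrays, -0.13 for the second Prom1 probe set (rostral), -0.010 for the second Sox3 probe set (occipital) and -0.063 for Prom1 (hemisphere) with the higher floor, and -0.046 (occipital) and -0.099 (hemisphere) for Fabp7 after quantile normalization. With 1 array left out, the ranges of results that crossed 0 were as follows: in medial against the other 4 regions, -0.15 to 0.13 for Sox2, -0.086 to 0.028 for Fabp7; in dorsal against the other 4 regions, -0.0055 to 0.31 for Tead2; in ventral against the other 4 regions, -0.32 to 0.13 for Sox2; in rostral against the other 4 regions, -0.044 to 0.15 for the second Prom1 probe set, -0.022 to 0.29 for Tead2, -0.34 to 0.14 for Hopx, -0.057 to 0.41 for Gas1, -0.0076 to 0.13 for Fabp7; in occipital against the other 4 regions, -0.25 to 0.55 for Sox2, -0.12 to 0.17 for the second Sox3 probe set, -0.097 to 0.53 for Tead2, -0.12 to 0.15 for Fabp7; in ventral against medial, -0.30 to 0.16 for Sox2; in rostral against occipital, -0.21 to 0.066 for Prom1, -0.12 to 0.68 for Sox2, -0.38 to 0.25 for Tead2, -0.47 to 0.013 for Hopx, -0.28 to 0.19 for Gas1, -0.24 to 0.22 for Aldoc, -0.091 to 0.10 for Dbi, -0.10 to 0.17 for Fabp7; in hemisphere against the mean of the 5 regions, -0.029 to 0.070 for Prom1, -0.24 to 0.048 for the second Prom1 probe set, -0.37 to 0.57 for Sox2, -1.10 to 0.13 for Sox3, -0.20 to 0.42 for Tead2, -0.33 to 0.076 for Hopx. With 2 arrays per group, small differences of the 9 genes cannot be told from 0, and sizes depend on the floor of 693.5 where arrays lie under it (1 ventral array of Sox3, both of the second Prom1 probe set).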
